A study of Mus musculus with 4 samples.

Results

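Genes that sense, signal and repair DNA double-strand breaks were followed in the testis of *Parp1* knockout and control mice. The set held 32 genes, taken from the deposited table of 25683 genes by gene symbol and not by any measured value. It comprised 7 genes of break signalling and the checkpoint, 5 of end resection, 12 of homologous recombination and 8 of end joining. Every gene of the set was found in the table, and all 32 had enough reads to be tested.

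RNAseq was performed on testis RNA of 2 *Parp1* knockout and 2 control libraries. Knockout animals carried a *neo* cassette in exon 2 of *Parp1*, an allele made in 129S mice and moved to C57Bl/J by repeated crossing, and control animals were labelled WT. PARP1 is a nuclear enzyme that binds broken DNA and attaches poly(ADP-ribose) chains to proteins. The data address whether transcripts of the break response differ when *Parp1* is disrupted. The titles of the knockout samples name PARG29b, whereas their genotype label and the series description name *Parp1*. Both knockout libraries carry the same heading in the deposited table, so they are called here the larger (21821073 exon reads) and the smaller (18103863 exon reads) knockout library, against 20449210 and 23503503 exon reads in control 1 and control 2. Age is not given in the labels, nor whether the libraries of a genotype came from separate animals, so the p-values measure the spread between these libraries only.

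A double-strand break is recognised by the MRE11-RAD50-NBN complex and by the Ku proteins. The kinases ATM, ATR and DNA-PKcs then mark chromatin and halt the cell cycle, and the ends are either resected and repaired from a homologous copy or joined directly. In the testis the pathway is also part of normal development, because spermatocytes make programmed breaks to start meiotic recombination and use ATR and MDC1 to silence the unpaired sex chromosomes.

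*Parp1* was measured first as a check of the genotype. It had 489 and 424 exon reads in the larger and smaller knockout library, against 1781 and 2035 in control 1 and control 2. After scaling for library size this was 24.1 and 22.1 CPM (a counts-per-million value) in knockout testis, against 86.4 and 86.0 CPM in control testis. *Parp1* mRNA therefore fell by 1.90 on the log2 scale (95% interval -2.16 to -1.64; edgeR's quasi-likelihood test, Benjamini-Hochberg adjusted p = 0.0126), and reads of the gene were still present in both knockout libraries, which limits these animals as a model of complete loss. The reads were counted over the whole gene, so they do not show which exons remain.

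Stretches of promoter are shown for the genes whose sequence holds a match to the E2F element, because this motif exceeded its share in all promoters by the largest ratio among those searched. E2F proteins drive genes of DNA replication and the S phase. The sequences are from RefSeq (GRCm38.p6), run 5′ to 3′ on the strand of the gene, and have the 8 bases that match TTTCCCGC, or GCGGGAAA where the match lies on the other strand, in capitals. They lie at chr5:110839811-110839858 (*Chek2*, + strand), chr17:35841462-35841509 (*Mdc1*, + strand), chr1:71103154-71103201 (*Bard1*, - strand), chr5:150522433-150522480 (*Brca2*, + strand), chr11:87404932-87404979 (*Rad51c*, - strand) and chr15:82016303-82016350 (*Xrcc6*, + strand). The RefSeq starts of *Xrcc6*, *Bard1* and *Chek2* fall inside the spans of these genes in the deposited table.
Chek2: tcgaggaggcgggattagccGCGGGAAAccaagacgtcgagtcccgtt
Mdc1: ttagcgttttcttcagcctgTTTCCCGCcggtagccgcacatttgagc
Bard1: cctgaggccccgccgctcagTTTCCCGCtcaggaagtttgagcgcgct
Brca2: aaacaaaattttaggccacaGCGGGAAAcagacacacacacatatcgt
Rad51c: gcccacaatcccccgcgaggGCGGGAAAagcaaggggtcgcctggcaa
Xrcc6: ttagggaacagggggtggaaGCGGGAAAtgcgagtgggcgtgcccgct

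The 300-base promoters of *Atr* and *Mdc1*, whose mRNAs were the most abundant of the 32, are shown whole. Each window runs from 250 bases before the RefSeq start to 50 bases after it, at chr9:95857347-95857646 for *Atr* and chr17:35841248-35841547 for *Mdc1*, both on the + strand. Capitals mark the motif matches found in them. *Atr* has the ETS element CCGGAAG on the other strand, and *Mdc1* has the MYB form AACTGNC, the shorter CRE form TGACGT and the E2F form TTTCCCGC. The 2 promoters shared none of the motifs searched, although their mRNAs stood next to each other in level.
Atr: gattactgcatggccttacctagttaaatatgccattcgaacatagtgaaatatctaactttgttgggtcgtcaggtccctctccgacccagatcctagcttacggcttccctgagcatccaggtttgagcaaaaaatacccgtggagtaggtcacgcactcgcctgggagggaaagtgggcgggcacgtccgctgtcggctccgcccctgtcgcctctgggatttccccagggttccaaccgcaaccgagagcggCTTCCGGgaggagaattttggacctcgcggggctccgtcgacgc
Mdc1: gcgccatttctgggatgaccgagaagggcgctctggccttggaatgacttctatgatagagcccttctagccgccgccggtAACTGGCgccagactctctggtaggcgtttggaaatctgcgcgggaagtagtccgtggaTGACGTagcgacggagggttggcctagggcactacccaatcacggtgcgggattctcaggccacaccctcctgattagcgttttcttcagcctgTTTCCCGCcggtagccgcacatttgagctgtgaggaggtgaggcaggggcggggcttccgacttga

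Levels were compared between genes in TPM, a transcripts-per-million value, which takes the exon length of each gene into account. *Atr*, the kinase that responds to single-stranded DNA, had 73.8 and 108 TPM in the larger and smaller knockout library, against 84.6 and 79.4 TPM in control 1 and control 2. *Mdc1*, the adaptor that binds phosphorylated H2AX and spreads the signal along chromatin, had 69.4 and 87.7 TPM in knockout testis, against 84.1 and 78.7 TPM in control testis. These 2 genes stood above the rest in all libraries, and their ranges overlapped each other and overlapped between genotypes. The next in TPM was *Nbn*, the signalling subunit of the MRE11-RAD50-NBN complex, at 23.6 ± 0.539 TPM in knockout and 21.2 ± 0.623 TPM in control testis (SD, n = 2 libraries each). *Xrcc4*, a scaffold for end ligation, had 23.5 ± 3.99 TPM in knockout and 19.1 ± 0.764 TPM in control testis. *Xrcc5*, which encodes Ku80, had 21.2 ± 5.04 TPM in knockout and 18.9 ± 1.35 TPM in control testis. The order among *Nbn*, *Xrcc4* and *Xrcc5* was not separated by these spreads.

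The lowest levels in TPM belonged to *Rad51b*, *Chek2*, *Dclre1c*, *Prkdc* and *Atm*. *Rad51b*, a recombination gene, had 1.48 and 1.42 TPM in knockout libraries, against 1.40 and 1.92 TPM in control libraries. *Chek2*, the checkpoint kinase downstream of ATM, had 1.15 and 1.82 TPM in knockout testis, against 1.34 and 1.96 TPM in control testis. *Dclre1c*, the nuclease Artemis, had 1.59 and 1.91 TPM in knockout testis, against 1.97 and 1.75 TPM in control testis. These 3 genes overlapped in range, and *Chek2* rested on only 30 and 36 reads in the knockout libraries, against 31 and 53 in the control libraries. *Prkdc*, which encodes the catalytic subunit of DNA-PK, had 3.06 ± 0.660 TPM in knockout and 3.31 ± 0.0141 TPM in control testis. *Atm*, the kinase activated at double-strand breaks, had 3.58 ± 0.985 TPM in knockout and 3.70 ± 0.225 TPM in control testis.

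**Figure D1:**
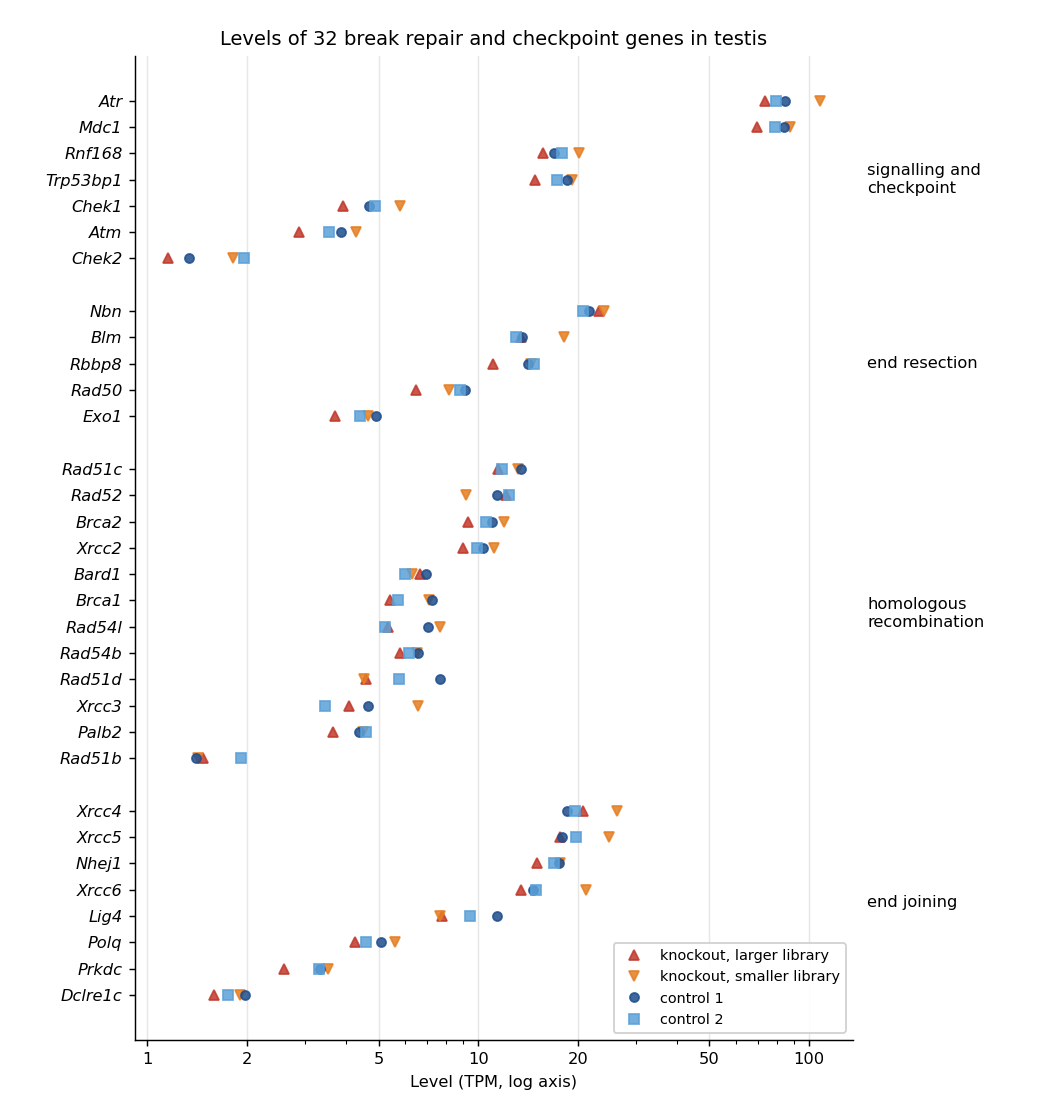
Level of each of the 32 genes in TPM (log axis) in the larger and smaller knockout library (triangles) and in control 1 and control 2 (circle and square), with genes grouped by role. *Atr* and *Mdc1* lie between 69.4 and 108 TPM, and every other gene lies below both of them in all 4 libraries.

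The order depends on the length taken for a gene. An alternative, chosen after the data were seen, was the length of the main coding transcript of GENCODE M21, that with the longest coding sequence. By it, 4 of the 32 genes moved by 5 or more places. *Rad51c* moved to place 4, against 12 in TPM, *Rbbp8* to 5, against 11, *Rad54b* to 13, against 21, and *Dclre1c* to 23, against 30, which takes it out of the lowest 5. *Nbn* moved to place 6, against 3. *Atr* and *Mdc1* kept the top places, and *Xrcc4* moved to place 3, against 4. *Xrcc4* had 28.1 CPM per kb in knockout and 22.7 CPM per kb in control testis. *Mdc1* had 34.8 CPM per kb in knockout and 35.8 CPM per kb in control testis.

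The median of the 32 genes was 7.53 TPM in knockout and 9.56 TPM in control testis, where the median of all genes tested was 12.1 TPM in knockout and 12.2 TPM in control testis. The medians of the 32 fell between different genes, *Rad50* and *Lig4* in knockout and *Rad50* and *Xrcc2* in control testis. Over the same genes the median fitted log2 fold change was -0.03. In control testis 12 of the 32 lay above the median of all genes tested. The kinases that open the 3 branches of signalling differed widely in mRNA. The TPM of *Atr* was 25.6 and 25.3 times that of *Atm* in the larger and smaller knockout library, and 21.9 and 22.4 times in control 1 and control 2. *Chek1*, the target of ATR, exceeded *Chek2*, the target of ATM, by 3.38 and 3.18 times in knockout testis, and by 3.50 and 2.48 times in control testis.

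Genes whose proteins act as fixed pairs were then set side by side. *Xrcc5* and *Xrcc6*, which encode the Ku subunits, kept a TPM ratio of 1.31 and 1.17 in the larger and smaller knockout library, against 1.22 and 1.32 in control 1 and control 2. *Brca1* and *Bard1*, which form a ubiquitin ligase, had ratios of 0.81 and 1.13 in knockout libraries, against 1.04 and 0.95 in control libraries. For both of these pairs the genotypes overlapped. *Xrcc4* over *Lig4*, the DNA ligase that XRCC4 stabilises, was 2.67 and 3.42 in knockout libraries, against 1.63 and 2.09 in control libraries. *Nbn* over *Rad50*, the structural subunit of their complex, was 3.57 and 2.93 in knockout libraries, against 2.37 and 2.35 in control libraries. The ranges of these last ratios did not overlap between genotypes, and they were not tested. They restate genes that singly lay on opposite sides of control. The ranges of *Atr* over *Atm* did not overlap either, whereas those of *Chek1* over *Chek2* did. How often other gene pairs show such a gap was not measured. By the length of the main coding transcript *Xrcc4* over *Lig4* was 7.94 in knockout and 4.86 in control testis, whereas *Atr* over *Atm* was 25.0 in knockout and 21.7 in control testis.

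Knockout was compared with control testis across 15834 genes. None of the 32 genes passed the threshold of 0.05 by edgeR's quasi-likelihood test, and the lowest Benjamini-Hochberg adjusted p among them was 0.527. Of all genes tested, 15 passed (0.0947%). At an unadjusted p under 0.05 the set held 1 gene, *Xrcc4*, where 7.79% of all genes fell under that value. DESeq2, the likelihood ratio test of edgeR and limma voom also called 0 of the 32 (1.22%, 2.36% and 0.0695% of all genes), with 0, 2 and 1 of them at an unadjusted p under 0.05. Fitted log2 fold changes ran between -0.53 and 0.40, with 13 genes above 0 and 19 below, where 51.6% of all genes were above 0. The median was -0.03 over the 32 genes and 0.01 over all genes. For 29 of the 32 the 95% interval lay within 2-fold in either direction (72.5% of all genes), and for 24 it lay within 1.5-fold (47.8% of all genes). These shares are not matched for read depth. The intervals of *Xrcc3*, *Rad51d* and *Chek2* reached past 2-fold in 1 direction, so that a difference of that size lay within their intervals.

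**Figure D2:**
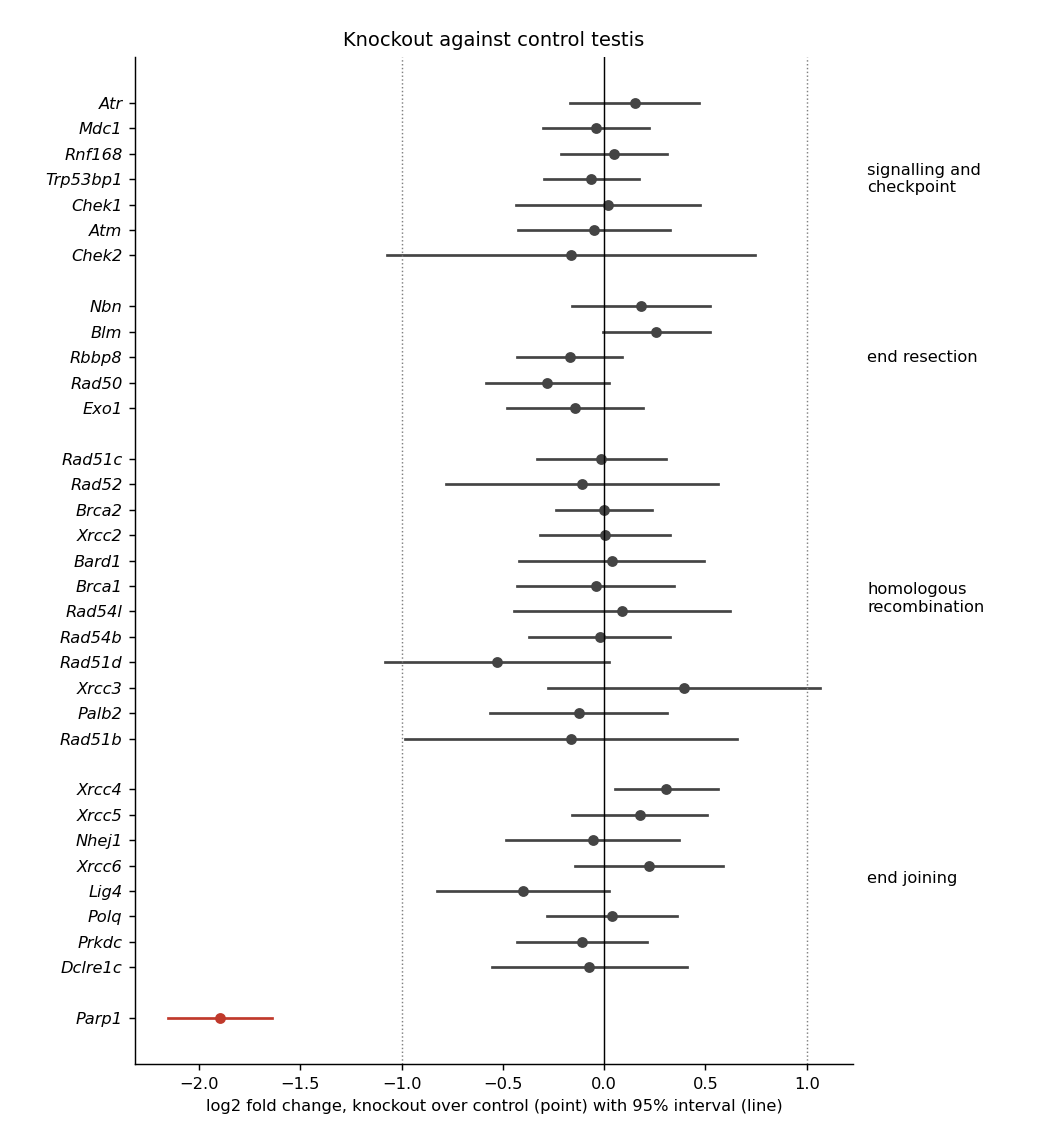
Fitted log2 fold change of each gene, knockout over control (points), with its 95% interval (lines), grouped by role, and *Parp1* at the bottom. Dotted lines mark 2-fold in either direction; all intervals of the 32 genes except that of *Xrcc4* include 0, and that of *Parp1* runs from -2.16 to -1.64.

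As a second description of the same values, the libraries were checked for overlap in CPM. Both knockout libraries lay outside the range of both control libraries for 13 of the 32 genes, or 40.6%, where the share of all genes was 37.1%. Of these, 5 lay above (17.9% of all genes) and 8 lay below (19.2% of all genes). The exact permutation test of 2 against 2 libraries cannot give a two-sided p below 0.33. In TPM the count was 5 of the 32, where the share of all genes was 29.5%, and these were *Nbn*, *Xrcc4*, *Lig4*, *Rad50* and *Rad51d*.

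Among signalling and checkpoint genes, 3 fitted fold changes were above 0 and 4 below, and every gene overlapped between genotypes in CPM. *Atr* (chr9:95857597-95951781, + strand) had 298 and 350 CPM in the larger and smaller knockout library, against 299.7 and 285 CPM in control 1 and control 2. The larger knockout library lay between the controls and the smaller one above them, with a fitted log2 fold change of 0.15 (95% interval -0.17 to 0.47). *Mdc1* had 254 and 257 CPM in knockout libraries, against 269.5 and 255 CPM in control libraries. *Atm* had 14.3 and 17.0 CPM in knockout libraries, against 16.8 and 15.6 CPM in control libraries. *Trp53bp1*, whose protein shields ends from resection, and *Rnf168*, a ubiquitin ligase that recruits it, had fitted log2 fold changes of -0.06 and 0.05. For *Chek1* the value was 0.02. For *Chek2* it was -0.16, with an interval from -1.07 to 0.75.

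Among the 5 resection genes, every gene had both knockout libraries outside the control range in CPM, with 2 above and 3 below, whereas in TPM only *Nbn* and *Rad50* did. Over all genes the share was 37.1% in CPM and 29.5% in TPM, and a group of 5 genes is too small for its count to be read against them. *Blm* (chr7:80454733-80535119, - strand), a helicase that unwinds ends and dissolves recombination intermediates, had 36.0 and 38.9 CPM in the larger and smaller knockout library, against 31.9 and 30.8 CPM in control 1 and control 2. Its log2 fold change was 0.26 (95% interval -0.01 to 0.52; unadjusted p = 0.0547 by edgeR's quasi-likelihood test, adjusted p = 0.660). *Nbn* had 28.9 and 23.98 CPM in knockout libraries, against 23.7 and 22.98 CPM in control libraries. The gap between the smaller knockout library and control 1 was therefore far smaller than that between the knockout libraries. *Rad50* (chr11:53649519-53707319, - strand) had 16.5 and 16.6 CPM in knockout libraries, against 20.3 and 19.9 CPM in control libraries. Its libraries were close within each genotype, and the log2 fold change was -0.28 (95% interval -0.58 to 0.02; unadjusted p = 0.0640 by edgeR's quasi-likelihood test, adjusted p = 0.692). *Rbbp8*, which encodes the resection factor CtIP, had 32.8 and 34.3 CPM in knockout libraries, against 36.6 and 38.9 CPM in control libraries. *Exo1*, a nuclease for long-range resection, had 14.96 and 15.07 CPM in knockout libraries, against 17.4 and 15.8 CPM in control libraries. *Nbn* and *Rad50*, which encode partners of a single complex, thus lay on opposite sides of control.

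Among the 12 genes of homologous recombination, 4 fitted fold changes were above 0 and 8 below. *Rad51d* (chr11:82876434-82890614, - strand), a gene of the BCDX2 complex of recombination, had 8.35 and 6.62 CPM in the larger and smaller knockout library, against 12.3 and 9.34 CPM in control 1 and control 2. This was the lowest fold change of the 32 genes, -0.53 on the log2 scale (95% interval -1.08 to 0.02; unadjusted p = 0.0572 by edgeR's quasi-likelihood test, adjusted p = 0.672). The difference between the controls was larger than that between control 2 and the larger knockout library. The fitted fold changes of *Rad51b*, *Rad51c* and *Xrcc2*, of the same complex, and of *Xrcc3*, of a related one, differed from it in direction or size. *Xrcc3* had 4.84 and 6.31 CPM in knockout libraries, against 4.85 and 3.63 CPM in control libraries, which gave the highest fold change of the set, 0.40, with overlapping libraries and an interval from -0.28 to 1.07. *Xrcc2*, *Rad51c* and *Rad51b* had log2 fold changes of 0.00, -0.01 and -0.16.

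The BRCA genes and *Bard1* had fitted log2 fold changes near 0, with intervals that leave room for a difference. The values were -0.00 for *Brca2* (95% interval -0.24 to 0.24), -0.04 for *Brca1* (-0.43 to 0.35) and 0.04 for *Bard1* (-0.42 to 0.49). *Brca2*, a mediator of recombination, had 49.3 and 50.8 CPM in knockout libraries, against 50.8 and 49.3 CPM in control libraries. *Brca1* had 17.9 and 18.8 CPM in knockout libraries, against 21.01 and 16.8 CPM in control libraries, and *Bard1* had 18.6 and 14.1 CPM in knockout libraries, against 17.0 and 14.9 CPM in control libraries. All 3 overlapped between genotypes. *Palb2*, the bridge between BRCA1 and BRCA2, had 7.06 and 6.99 CPM in knockout libraries, against 7.42 and 7.90 CPM in control libraries, and a fitted difference of -0.13 on the log2 scale (95% interval -0.56 to 0.31). *Rad52*, a strand-annealing protein, had 10.1 and 6.15 CPM in the larger and smaller knockout library, against 8.35 and 9.21 CPM in control 1 and control 2. It was the only gene of the 32 whose knockout libraries differed by 1.5 times or more, at a ratio of 1.65. *Rad54l* and *Rad54b*, which encode translocases that act in recombination, had log2 fold changes of 0.09 and -0.02.

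Among the 8 genes of end joining, 4 fold changes were above 0 and 4 below. *Xrcc4* (chr13:89774027-90089608, - strand) had 42.9 and 43.8 CPM in the larger and smaller knockout library, against 33.8 and 36.2 CPM in control 1 and control 2. Both knockout libraries lay above both controls, with a fitted log2 difference of 0.31 (95% interval 0.05 to 0.56; unadjusted p = 0.0262 by edgeR's quasi-likelihood test, adjusted p = 0.527), so the difference did not pass the correction over all genes. *Lig4* (chr8:9969049-9977686, - strand) had 19.9 and 15.8 CPM in knockout libraries, against 25.7 and 21.4 CPM in control libraries. It lay on the other side of control from its partner, with a fitted log2 difference of -0.40 (95% interval -0.83 to 0.03; unadjusted p = 0.0607 by edgeR's quasi-likelihood test, adjusted p = 0.686). *Nhej1*, which encodes XLF, a further factor of this ligation complex, had 7.80 and 7.35 CPM in knockout libraries, against 7.96 and 7.82 CPM in control libraries, so that the larger knockout library and control 2 nearly coincided.

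*Xrcc5* had 22.2 and 25.0 CPM in the larger and smaller knockout library, against 19.7 and 22.1 CPM in control 1 and control 2. *Xrcc6* had 24.7 and 31.1 CPM in knockout libraries, against 23.5 and 24.3 CPM in control libraries. Both Ku genes thus had knockout libraries above control, with fitted log2 differences of 0.17 (95% interval -0.16 to 0.51) and 0.22 (95% interval -0.14 to 0.59), and in each the larger knockout library was near the higher control in CPM and below both controls in TPM. *Prkdc* had 16.1 and 17.6 CPM in knockout libraries, against 18.1 and 18.3 CPM in control libraries. *Dclre1c* and *Polq*, the polymerase of microhomology-mediated joining, had log2 fold changes of -0.07 and 0.04 with overlapping libraries.

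**Figure D3:**
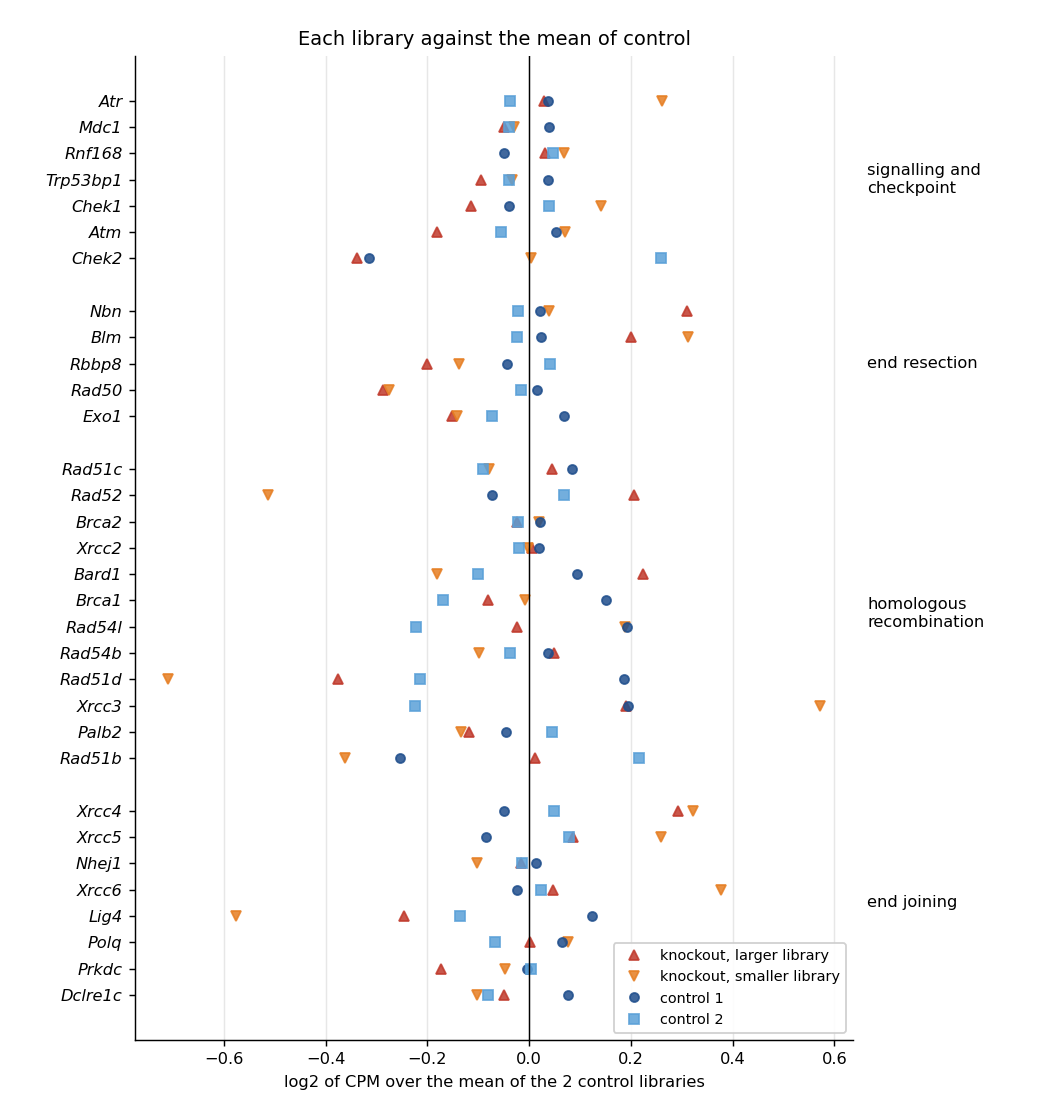
Each library as log2 of its CPM over the mean of the control libraries, for the 32 genes grouped by role, with knockout libraries as triangles and control 1 and control 2 as circle and square. Knockout triangles lie on the same side of both control marks for 13 genes, among them *Xrcc4* and *Blm* above and *Rad51d*, *Lig4* and *Rad50* below.

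Over all genes, the root mean square log2 difference was 0.58 between knockout libraries and 0.35 between control libraries. For the 32 genes the same measure was 0.24 between knockout libraries and 0.22 between control libraries. All genes tested include some near the minimum count of 10, whereas each of the 32 had at least 30 reads in every library. These measures are therefore not matched for read depth. When the larger knockout library was left out, 6 of the 32 genes were called by edgeR's quasi-likelihood test after Benjamini-Hochberg correction (23.6% of all genes). These were *Atr* (log2 fold change 0.26), *Xrcc4* (0.32), *Xrcc6* (0.38) and *Blm* (0.32) above control, and *Lig4* (-0.57) and *Rad51d* (-0.70) below it. When the smaller knockout library was left out, *Xrcc4* alone of the 32 was called (log2 fold change 0.29, adjusted p = 0.0436), where 17% of all genes were called. Without control 1 none of the 32 was called (0.0316% of all genes), and without control 2 none was (0.0505% of all genes). With a knockout library left out, the remaining one is taken to vary as the controls do, so these counts describe single libraries. *Xrcc4* lay above control in both fits (log2 fold change 0.32 and 0.29). This sign follows from both of its knockout libraries lying above both controls in CPM, so it is not a further check. These fits share the same control libraries, so they are not independent of each other.

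Testis is a mixture of cell types, and a smaller share of cells of a type cannot be told apart from less RNA per cell in these data. The summed TPM of the 32 genes was 402 and 515 in the larger and smaller knockout library, against 460.0 and 440 in control 1 and control 2. The sum of 12 markers of elongating spermatids, which pack DNA with protamines, was 90084 and 51007 TPM in knockout libraries, against 76334 and 77953 TPM in control libraries. Relative to control these libraries thus lay on opposite sides, and the TPM sums of the 32 genes ran the other way. In CPM the 32 genes summed to 1153.5 and 1216 in the larger and smaller knockout library, against 1184 and 1133 in control 1 and control 2. The larger knockout library thus lay between the controls in CPM. The TPM of the larger knockout library was below both controls for 24 of the 32 genes (67.5% of all genes), and that of the smaller knockout library was above both for 18 (59% of all genes). The sum of 8 markers of Leydig cells, which make testosterone, was 2515 and 8211 TPM in knockout libraries, against 3058 and 3805 TPM in control libraries. Markers of spermatocytes, the cells in meiosis, summed to 8662 and 8738 TPM in knockout libraries, against 8552 and 8271 TPM in control libraries, over 15 genes. Those of round spermatids summed to 2411 and 2532 TPM in knockout libraries, against 2337 and 2074 TPM in control libraries. In both of these lists the knockout sums lay above both controls in TPM. In CPM both lists overlapped between genotypes. Spermatocyte markers had 7664 and 6318 CPM in knockout libraries, against 6720 and 6536 CPM in control libraries. Round spermatid markers had 2277 and 1915 CPM in knockout libraries, against 1931 and 1782 CPM in control libraries. Below both controls lay the sums for peritubular cells (408 and 362 TPM in knockout libraries, against 409 and 451 TPM in control libraries), red blood cells (106 and 79.4 TPM in knockout libraries, against 137 and 147 TPM in control libraries) and epididymis (0.291 and 0.0793 TPM in knockout libraries, against 2.60 and 2.49 TPM in control libraries, with 2 of 6 markers at 0 in every library). In TPM the sums for spermatogonia, Sertoli cells, macrophages and lymphocytes, and endothelium overlapped between genotypes. In CPM the peritubular sums overlapped too, at 335 and 255 in knockout libraries, against 303 and 349 in control libraries. The spermatogonial sums instead lay below both controls in CPM (223.3 and 229.8 in knockout libraries, against 244.8 and 245.3 in control libraries). The endothelial sums also lay below in CPM (29.97 and 30.34, against 30.52 and 39.50). Of the 12 spermatogonial markers, 9 had fitted fold changes below 0 and 3 above. Other lists leaned as well. Above and below 0 lay 9 and 1 round spermatid, 10 and 5 spermatocyte, and 7 and 3 Sertoli cell markers. The counts were 0 and 6 for peritubular cells, and 1 and 4 for both endothelium and red blood cells. Markers of elongating spermatids, Leydig cells, and macrophages and lymphocytes were evenly split. None of the listed markers of any cell type passed the threshold, although 2 of 12 spermatogonial, 1 of 15 spermatocyte, 1 of 10 round spermatid, 2 of 8 Leydig cell, 2 of 5 red blood cell and 1 of 1 tested epididymal markers had an unadjusted p under 0.05 by edgeR's quasi-likelihood test. The part of cell composition in the values of the 32 genes was not tested.

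**Figure D4:**
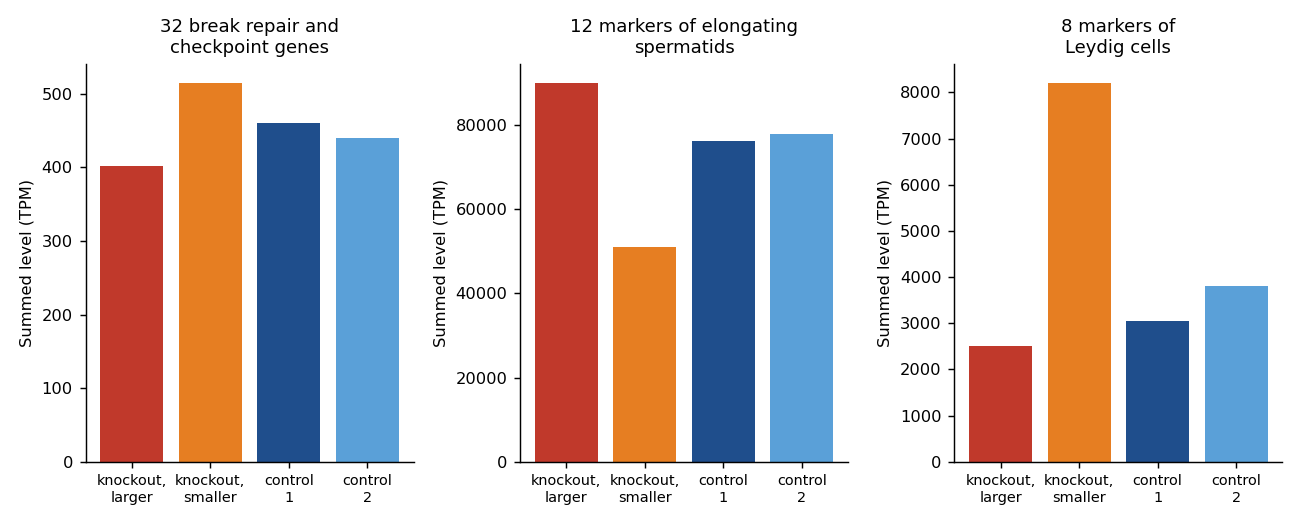
Summed TPM of the 32 break repair and checkpoint genes (left), of 12 elongating spermatid markers (middle) and of 8 Leydig cell markers (right) in the larger and smaller knockout library and in control 1 and control 2, as bars from 0. The smaller knockout library has the highest sum for the 32 genes (515 TPM) and for Leydig cell markers (8211 TPM), and the lowest for spermatid markers (51007 TPM).

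A further 83 genes of the same pathways were examined, of which 81 had enough reads. None passed by edgeR's quasi-likelihood test, DESeq2, the likelihood ratio test or limma voom, and 0 had an unadjusted p under 0.05 by any of them. Fold changes were above 0 for 33 and below for 48, with a median of -0.02, where 51.6% of all genes were above 0. Knockout libraries lay outside the control range in CPM for 39.5%, near the 37.1% of all genes. *Mre11a*, the nuclease of the complex with RAD50 and NBN, had 37.2 and 35.0 CPM in knockout libraries, against 38.3 and 35.9 CPM in control libraries. *H2ax*, whose protein is phosphorylated around breaks, had 80.9 and 75.0 CPM in knockout libraries, against 68.7 and 68.5 CPM in control libraries, with a fitted log2 difference of 0.18 (95% interval -0.05 to 0.42). The ubiquitin ligase gene *Rnf8* and *Trp53*, which encodes p53, both had log2 fold changes of -0.00. With the larger knockout library left out *Parp3*, *Wrn*, *Cdc25c* and *Paxx* were called by edgeR's test, and with the smaller one left out *Hus1*, *Parp3*, *Sfr1*, *Mad2l2*, *Wee1*, *Cdc25c* and *H2ax* were. *Parp3* and *Cdc25c*, the genes called in both, had opposite signs in them.

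The 32 genes are spread over 15 autosomes, with 0 on the sex chromosomes. *Exo1*, *Bard1*, *Xrcc5* and *Nhej1* share chromosome 1 with *Parp1*. *Exo1* (chr1:175880581-175913489, + strand) lies 4.66 Mb from it, and the others lie 109, 108 and 105 Mb away. Sequence of the 129S strain that may remain next to the allele cannot be told apart from the genotype, and 1 of the 246 other genes tested within 20 Mb of *Parp1* was called. This gene, named after its values were seen, was *Rd3*, with 0.889 and 0.417 CPM in the larger and smaller knockout library, against 49.1 and 41.1 CPM in control 1 and control 2 (edgeR's quasi-likelihood test, Benjamini-Hochberg adjusted p = 0.0114). The log2 fold change of *Exo1* was -0.15 (95% interval -0.48 to 0.19).

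Exons of 11 of the 32 genes overlap those of another gene in GENCODE M21. The overlap reached 35.9% of GENCODE exon bases in *Rad54b*, which shares them with *Fsbp* on the same strand, 15.4% in *Rad54l* and 15% in *Trp53bp1*, and at most 7.7% in the others. The deposited exon lengths were shorter, at 5292 against 5782 bases in *Rad54b*, 3110 against 7706 in *Rad54l* and 10179 against 14164 in *Trp53bp1*. The overlap with the exons that were counted is therefore not known. Whether the counting used strand is not given in the sources used here, so the counts of the 11 genes may hold reads of a neighbour. Within 1000 bases of their start, 11 of the 32 genes (34.4%) have the start of a coding gene that is read in the opposite direction. The share of all coding genes tested was 14.1%. The closest were *Lig4* with *Abhd13* at 21 bases, *Palb2* with *Dctn5* at 56 bases and *Rad51c* with *Tex14* at 111 bases. The starts of *Xrcc4* and *Tmem167* were 485 bases apart, and these genes overlap, with 112 exon bases shared on opposite strands.

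In control libraries, where intron reads could be assigned, the median share of intron reads was 8.57% over the 32 genes and 6.50% over all genes tested. It was highest for *Rad51b*, at 63.6% and 54.8% in control 1 and control 2, followed by *Rad52* at 48.0% and 45.1% and *Dclre1c* at 43.6% and 45.7%. *Rad51b* and *Dclre1c* were also among the genes with the lowest TPM, while *Rad52* was not.

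Promoters of the length shown above were available for 24 of the 32 genes and for 12411 genes tested in all. Each motif was searched on both strands. TTTCCCGC was found in 6 of the 24 (25.0%) and in 1.97% of all promoters. In the 6 genes it lay 209 to 5 bases before the RefSeq start. With the E2F forms TTTGGCGC, TTTCGCGC and TTTGCCGC added, the share remained 25.0% for the 24 genes and was 3.76% for all promoters. The ETS element CCGGAAG was in 37.5% of the 24 and 15.8% of all, *Xrcc4*, *Lig4* and *Atm* among them. Other motifs were closer to the share of all promoters or below it, namely GCCAAT (the NF-Y box) with 20.8% of the 24 and 19.2% of all, TGACGT with 16.7% of the 24 and 10.5% of all, AACTGNC with 4.17% of the 24 and 11.8% of all, and the NRF1 element with 0 of the 24 and 1.81% of all. TGACGT is contained in TGACGTCA, which was in 4.17% of the 24 and 2.90% of all. AACNGTT was in 4.17% of the 24 and 3.54% of all, and TATAAA (the TBP box) in 8.33% of the 24 and 7.69% of all. The last 2 E2F forms were added after the share of the first had been seen, and a match describes letters in the window only. The 6 genes with an E2F match had fold changes on both sides of 0, with *Xrcc6* at 0.22, *Bard1* at 0.04, *Brca2* at -0.00, *Rad51c* at -0.01, *Mdc1* at -0.04 and *Chek2* at -0.16.

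**Figure D5:**
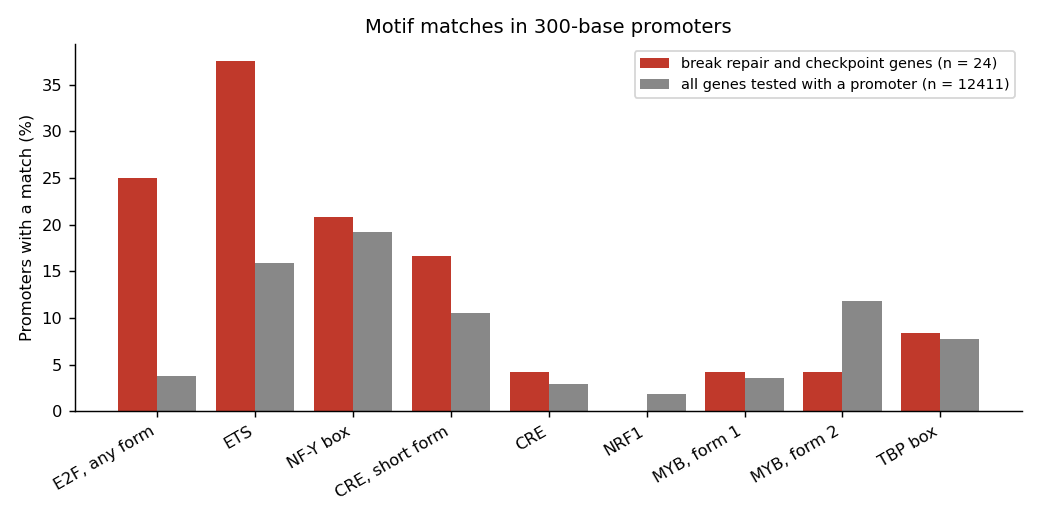
Percent of 300-base promoters with at least 1 match on either strand, for the 24 break repair and checkpoint genes with a promoter and for all 12411 genes tested with one, by motif. Bars start at 0, and those for E2F (25.0% and 3.76%) and ETS (37.5% and 15.8%) show the widest gaps.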

How the data were processed

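Testis RNA was enriched for poly(A) and read as pairs of 150 bp. After trimming, the authors mapped the pairs with CLC Genomics Workbench (standard parameters, build GRCm38) and deposited, per gene and library, counts of exon reads and TPM values. Comparison columns of the deposited table (fold change, p-value, adjusted p-values and group means) were not used. Both sets of knockout columns have the same heading, so only their total exon reads were used, and 54 of 67 columns of values were left out. The intron test and unique-read alternatives that had been planned were therefore not run. TPM was computed from exon reads and exon lengths, and it differed from the deposited control TPM by at most 6.75e-15 as a relative difference.

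Tests used the counts as deposited, in edgeR 4.0.16 (R 4.3.3). Genes were kept by filterByExpr (minimum count 10), libraries were scaled by TMM (factors 0.928 and 1.06 in the larger and smaller knockout library, and 1.01 in both controls), and the quasi-likelihood test compared knockout with control in a model that held genotype alone. Benjamini-Hochberg adjustment covered the 15834 genes kept, at a threshold of 0.05. At 18103863 to 23503503 exon reads per library the biological coefficient of variation was 15.32%. Standard errors were derived from the F statistic, as |log2 fold change| divided by its square root. Alternatives were DESeq2 1.42.0, the likelihood ratio test, limma 3.58.1 (voom, or log2(TPM + 1)), other scalings, filters and thresholds, and leaving out each library. The procedure was tested on simulated data. Python 3.11.15 and matplotlib 3.10.9 were used for annotation and figures, with GENCODE M21, to which the start and end of 31 of the 32 genes were identical. Summed exon lengths could differ, as for *Atr* with 8211 deposited against 23629 bases in GENCODE M21.

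The 32 genes, the gene lists and the tests were chosen with earlier results of these data known. Values per library are given for those of the 32 genes at an unadjusted p under 0.05, genes whose knockout libraries both lie on the same side of both controls, the 5 highest and 5 lowest in TPM, protein partners, genes on chromosome 1, genes called with a library left out and genes that differ by 1.5 times or more between knockout libraries. *Mdc1*, *Atm*, *Brca2* and *Xrcc3* were given in CPM, and neighbours, overlaps and ETS matches named, after their values were seen. Of the further pathway genes the rule took those past the threshold or at an unadjusted p under 0.05 and 5 fixed by name, 1 of which is not reported here. Those called with a library left out were named after their values were seen.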

Additional observations from a re-analysis of the deposited data

How the results depend on the processing

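None of the 32 genes was called under any alternative other than leaving out a library, where the count ran between 0 and 6. The further pathway genes gave 0 calls likewise, and between 0 and 7 with a library left out. Over all genes the count was 193 with DESeq2, 374 with the likelihood ratio test, 41 with library totals only, 52 with no filter, 79 with log2(TPM + 1), 53 at an adjusted p of 0.1, and between 5 and 3735 with a library left out. The median log2 fold change of the 32 genes ran between -0.062 and 0.0052 over all alternatives, both ends with a control left out. The spread it was judged against was redefined, as the SD within genotypes, after a first version had been seen. In TPM 5 genes lay outside the control range. Of the 32 genes 17 kept their sign throughout and 15 took the other sign with a library left out, 3 of them in other alternatives as well. These 3 were *Chek1* (-0.0023 with log2(TPM + 1)), *Brca2* (0.0026 with DESeq2 and 0.0026 with RLE scaling) and *Xrcc2* (-0.0020 with upper quartile scaling, -0.019 with library totals, -0.0023 with at least 10 reads in every library and -0.018 with log2(TPM + 1)). With libraries left out the log2 fold change ran between -0.18 and 0.074 for *Atm*, -0.11 and 0.14 for *Chek1*, -0.41 and 0.16 for *Chek2*, -0.081 and 0.00066 for *Mdc1*, -0.20 and 0.13 for *Brca1*, -0.18 and 0.23 for *Bard1*, -0.026 and 0.022 for *Brca2*, -0.38 and 0.089 for *Rad51b*, -0.10 and 0.075 for *Rad51c*, -0.021 and 0.022 for *Xrcc2*, -0.51 and 0.20 for *Rad52*, -0.11 and 0.31 for *Rad54l*, -0.094 and 0.049 for *Rad54b*, -0.16 and 0.0060 for *Dclre1c*, and -0.027 and 0.11 for *Polq*. The cause was not tested. No paired analysis was possible because the knockout columns carry no replicate number that ties them to a sample. Unique exon reads and intron reads were not run for knockout libraries for the same reason. *Chek2* and *Rad51b* had under 100 reads in every library, and 2 libraries per genotype limit the precision of all values.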
